A study of Mus musculus with 27 samples.

Results

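Growth hormone sets the level of many genes of adult mouse liver, and 10 of them were followed here in pups that had not yet reached puberty. These were Mup3, Cyp2d9, Hsd3b5, Elovl3, Cyp4a12a and Slco1a1, which are higher in adult males, Cyp2b9, Cyp2b13 and Cux2, which are higher in adult females, and Bcl6, a male-biased repressor. The genes were chosen by name, and each was read from the probe set of highest mean among those annotated to that gene alone. All 10 had exactly 1 such probe set, and they are 10 of the 18820 genes measured in this way. The filters of the study ask for an intensity of 20 or more on 4 or more arrays and for an interquartile range of 0.1 or more. They were passed by 6 of the 10 genes, Mup3, Cyp2d9, Hsd3b5, Cyp2b13, Cux2 and Bcl6, and by 10810 genes in all.

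Liver RNA of 27 C57Bl/6J pups of 2 weeks of age was hybridised, 1 array per pup. The groups were 6 males and 6 females of dams on a Western-style diet (WSD; m-WS and f-WS) and 6 males and 9 females of dams on a low fat diet (LFD; m-LF and f-LF). The WSD gave 45% of its energy as fat and 196.5 mg cholesterol per kg, against 10% and 18.0 mg per kg in the LFD, and dams ate their diet from 6 weeks before mating until the pups were taken, so that pups of both diets were still suckling. All sires had eaten the control diet.

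In adult mice the pituitary releases growth hormone in pulses in males and more evenly in females. Liver cells read the pattern through the growth hormone receptor and the transcription factor STAT5b, and steroid hydroxylases, urinary proteins and transporters come to differ strongly between the sexes. Bcl6 and Cux2 are repressors that act on many of these genes, Bcl6 in males and Cux2 in females, and the adult pattern is known to take shape around puberty.

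The female-biased pair Cyp2b9 and Cyp2b13 encodes cytochrome P450 enzymes of a cluster on chromosome 7, at chr7:26173350-26210661 and chr7:26061388-26096197 (GRCm38.p6). Their promoter windows, 250 bases before to 50 bases after the transcription start in RefSeq on GRCm38.p6, are shown because they are nearly the same while the probe sets of the 2 genes gave different values. The windows lie on the plus strand at chr7:26173159-26173458 for Cyp2b9 and chr7:26061245-26061544 for Cyp2b13. Both gene intervals given above begin inside their window, before the transcription start from which the window was counted. Capitals mark the bases that differ.
Cyp2b9: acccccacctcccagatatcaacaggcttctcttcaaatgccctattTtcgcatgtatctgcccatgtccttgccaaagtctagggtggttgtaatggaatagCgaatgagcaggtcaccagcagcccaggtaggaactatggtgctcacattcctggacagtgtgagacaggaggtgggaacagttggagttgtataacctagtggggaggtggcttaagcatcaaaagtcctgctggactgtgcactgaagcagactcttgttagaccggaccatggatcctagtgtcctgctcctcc
Cyp2b13: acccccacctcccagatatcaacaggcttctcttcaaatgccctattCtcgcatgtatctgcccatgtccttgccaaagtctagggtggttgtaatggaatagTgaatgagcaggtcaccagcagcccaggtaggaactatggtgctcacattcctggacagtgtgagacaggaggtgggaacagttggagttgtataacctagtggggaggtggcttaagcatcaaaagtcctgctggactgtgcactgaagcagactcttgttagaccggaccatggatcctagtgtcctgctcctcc
Of 300 bases, 298 were identical (99.3%). The differences were T48C and C104T, with the base of Cyp2b9 first, the position counted from 1 at the 5′ end of the window, and the base of Cyp2b13 last.

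A promoter window was found for 8 of the 10 genes, Elovl3 and Cyp4a12a being those without. The windows were searched for TTCNNNGAA, the palindromic core that STAT proteins bind, which reads the same on both strands and which occurred in 8.3% of all 32851 windows. Among the 8 genes it was found in the windows of Bcl6 alone. Bcl6 has 2 windows, with 1 match in the first and 3 in the second, which is shown with its matches in capitals (minus strand, chr16:23981234-23981533).
Bcl6: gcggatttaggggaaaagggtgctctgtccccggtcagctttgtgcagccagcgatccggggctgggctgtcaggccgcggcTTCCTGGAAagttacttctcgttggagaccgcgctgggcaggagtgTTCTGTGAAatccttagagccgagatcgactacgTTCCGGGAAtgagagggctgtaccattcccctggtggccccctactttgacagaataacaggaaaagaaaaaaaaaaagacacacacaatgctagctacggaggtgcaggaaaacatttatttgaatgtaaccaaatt
The site ATCGAT, which Cux proteins can bind, occurred in 0.925% of all windows and, among the 8 genes, once in the second of 2 windows of Cux2 (chr5:122047776-122048075). A match of letters is no evidence of binding.

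Whole-series properties were as follows. The values are log2 intensities, from 1.51 to 13.58 over all probe sets, with array medians of 5.34 to 5.43. Hepatocyte markers averaged 12.79, 12.80, 12.76 and 12.79 in m-WS, m-LF, f-WS and f-LF livers over 10 of 10 genes. These lie near the top of the scale and only 3 of the 10 passed the filters. A difference compressed at high signal therefore cannot be told apart from none. The Y-linked genes Uty, Kdm5d and Eif2s3y read 6.98 to 8.95 in the 12 males, against 2.63 to 3.70 in the 15 females. Xist, the transcript of the inactive X chromosome, read 3.25 to 4.50 in 10 of the males but 9.30 in m-LF6 and 7.92 in m-WS1, against 11.67 to 11.88 in females. Results of the 10 genes in males are therefore also given without these 2 pups where they changed. Calls in the marker lists and other gene lists are given with all pups only. Array names carry a number (37, 39, 40, 48, 49 or 50) that the labels do not define and that may mark dams or litters. Each number occurs under 1 diet only, 39, 40 and 48 under WSD and 37, 49 and 50 under LFD, so diet and number cannot be told apart, and p-values treat the pups as independent. The number of arrays limits the precision.

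The male-biased genes were at or near background at 2 weeks, with the exception of Cyp2d9, Bcl6 and, in part, Mup3. Background was read from the Y-linked genes in the females, none of which reached an intensity of 20, or 4.32 on the log2 scale, on any of the 15 arrays. Cyp4a12a, a fatty acid hydroxylase (chr4:115299046-115332815), lay between 2.66 and 3.34 and reached 4.32 on 0 of 27 arrays. Slco1a1, an organic anion transporter (chr6:141907281-141946962), lay between 3.55 and 4.31 and reached it on 0 arrays. Elovl3, an elongase of very long chain fatty acids (chr19:46131897-46135694), reached it in 2 f-LF pups, at 4.72 and 4.60, and lay as low as 3.61 in a male of the LFD group. Hsd3b5, a hepatic steroid reductase (chr3:98618636-98645534), reached it on 9 arrays, 2 of m-WS, 1 of m-LF, 4 of f-WS and 2 of f-LF. The Y-linked genes in females ranged up to 3.70. Every value of Cyp4a12a lay under that and the ranges of the other 3 genes included it, although background differs between probe sets.

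Mup3 encodes a major urinary protein, a carrier of volatile pheromones that the adult male liver secretes in bulk (chr4:62083476-62087317). It reached 4.32 on 26 of 27 arrays and spread over 2.89 log2 units, from 4.24 to 7.13, the widest range among the 10 genes. Cyp2d9, a testosterone hydroxylase (chr15:82452377-82456827), reached it on all 27 arrays and lay between 8.20 and 9.48. The female-biased genes reached it on all 27 arrays as well. Cyp2b9 lay between 12.19 and 12.47 with an interquartile range of 0.0457, under the limit of 0.1, so it failed the filters for lack of variation and not for a low level. Cyp2b13 lay between 7.11 and 8.77 in males and between 7.42 and 8.88 in females. Cux2 (chr5:121857962-122050415) lay between 6.59 and 7.84 in males and between 7.23 and 8.22 in females. Bcl6 (chr16:23965050-23988866) lay between 5.35 and 8.03 on all 27 arrays. Members of the Mup, Cyp2d, Cyp2b, Cyp4a12 and Hsd3b families are close in sequence, so a probe set named for one may also bind transcripts of another. For Hsd3b5, 2 further probe sets were annotated jointly with Hsd3b4 and Gm10681 and were not used.

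**Figure D1:**
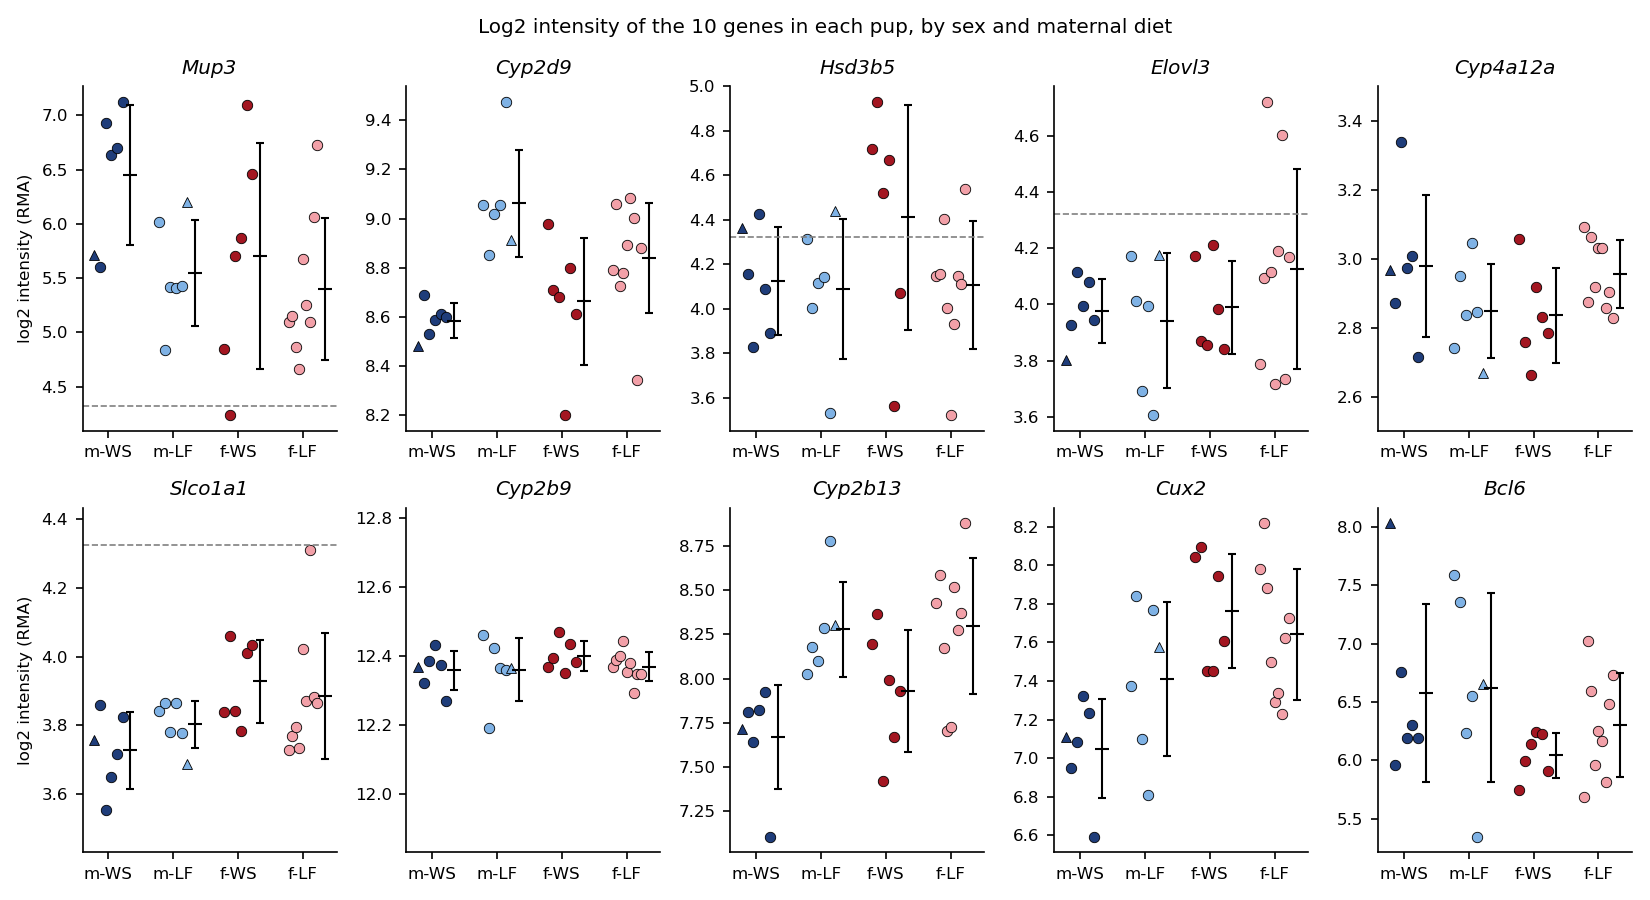
Log2 intensity of each of the 10 genes in each pup (vertical axes, a separate scale for each gene) by group (horizontal axes), with the group mean ± SD beside the points, for 6 m-WS, 6 m-LF, 6 f-WS and 9 f-LF pups. Triangles are m-LF6 and m-WS1, dashed lines mark 4.32 (an intensity of 20), and the m-WS points of Cyp2d9 and of Cyp2b13 all lie below the m-LF points.

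Upon maternal WSD, 2 of the 6 genes that could be tested fell in males, Cyp2d9 and Cyp2b13, and none rose. A gene was called when its unadjusted p in limma was at most 0.01, the threshold of the study, and the p-values printed are adjusted over all genes tested. By that rule 5.62% of all 10810 genes tested were called in this comparison, 2.6% as lower and 3.02% as higher. One of the 2 genes is male-biased in adults and the other female-biased. The median change of the 6 genes was -0.21, against 0.01 for all genes tested. As the tissue was bulk liver, fewer cells of a type and less RNA per cell cannot be told apart.

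Cyp2d9 lay at 8.48, 8.59 and 8.69 (lowest, median and highest) in m-WS pups, against 8.85, 9.04 and 9.48 in m-LF pups. Every m-WS pup lay below every m-LF pup. The means were 8.58 ± 0.07 and 9.06 ± 0.22 (SD, n = 6 each), a change of -0.48 ± 0.11 (SE) on the log2 scale or 1.39-fold lower (limma, adjusted p = 0.0392). With the array number as a random block the change was -0.47 and still called (limma, adjusted p = 0.119). That fit used a single correlation within numbers, 0.0887, for all genes. As each number lay under 1 diet, it does not separate diet from number. The mean of the males of each number was 8.59 and 8.58 under WSD, for numbers 40 and 48, against 8.95, 9.04 and 9.19 under LFD, for numbers 37, 49 and 50. Without the 6 pups of number 48, which leaves 2 m-WS pups, the change was -0.47 but no longer called (limma, adjusted p = 0.357). On the arrays with the name prefix G074 alone it was -0.28 and not called, and on those with G073 alone it was -0.59 and called (limma, adjusted p = 0.118).

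Cyp2b13 lay at 7.11, 7.76 and 7.92 in m-WS pups, against 8.02, 8.23 and 8.77 in m-LF pups. Again the 2 groups of males did not overlap, which held for 1.39% of all genes tested. The means were 7.67 ± 0.29 and 8.28 ± 0.27 (SD, n = 6 each), a change of -0.61 ± 0.17 (SE) or 1.52-fold lower (limma, adjusted p = 0.085). The call was lost without number 48, at a change of -0.51, and without number 50, at -0.48. It was lost within either prefix alone as well, at -0.48 on the arrays of G073 and -0.72 on those of G074. The adjusted p in these 4 fits lay between 0.128 and 0.998. With the array number as a random block it was kept, at -0.58 (limma, adjusted p = 0.197). Without m-LF6 and m-WS1 the changes of Cyp2d9 and Cyp2b13 were -0.49 and -0.61, both called.

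Its neighbour Cyp2b9, with the nearly identical promoter window, averaged 12.36 ± 0.06 in m-WS and 12.36 ± 0.09 in m-LF pups (SD, n = 6 each). In the fit without filters its change was -0.00 with a 95% interval from -0.08 to 0.07, which does not reach the change of Cyp2b13. The probe set of Cyp2b9 lies near the top of the scale, whose highest value is 13.58, and spread over 0.28 log2 units in all 27 pups, so a change compressed at high signal cannot be told apart from none. Cyp2b10, another gene of this family and the classic target of the receptor CAR, moved the other way, at 8.13 ± 0.29 in m-WS and 6.34 ± 0.80 in m-LF pups (change 1.78 ± 0.31 SE, limma, adjusted p = 0.007). In females the change of Cyp2b10 was 0.54 (limma, adjusted p = 0.39).

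Mup3 lay at 5.60, 6.67 and 7.13 in m-WS pups, against 4.84, 5.42 and 6.20 in m-LF pups. All 6 m-WS pups lay above the m-LF mean, but the groups overlapped. The change of 0.90 ± 0.38 (SE), or 1.87-fold, missed the threshold (limma, adjusted p = 0.246). It passed without m-LF6 and m-WS1 (change 1.18, limma adjusted p = 0.128), with males fitted alone (0.90, adjusted p = 0.12), without number 39 (0.90, adjusted p = 0.156) and without number 40 (1.30, adjusted p = 0.192). Without number 48 it was 0.11 (limma, adjusted p = 0.962), so the size of the change rested on the pups of that number. Cux2 in males changed by -0.36 ± 0.17 (SE), which was not called (limma, adjusted p = 0.335), at 6.59, 7.10 and 7.32 in m-WS pups, against 6.81, 7.48 and 7.84 in m-LF pups. This change was -0.04 on the arrays of prefix G073 and -0.83, and called, on those of prefix G074, and it was called at -0.59 without number 49 and at -0.48 without m-LF4.

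For the other genes the intervals of the change in males bound what these arrays could show. Bcl6 changed by -0.05, with a 95% interval from -0.68 to 0.58, at 5.96, 6.25 and 8.03 in m-WS pups, against 5.35, 6.60 and 7.59 in m-LF pups. The highest m-WS value was that of m-WS1. Hsd3b5 changed by 0.04 with an interval from -0.34 to 0.41. In the fit without filters the changes of Elovl3, Cyp4a12a and Slco1a1 were 0.04, 0.13 and -0.08, with 95% intervals from -0.24 to 0.32, from -0.03 to 0.29 and from -0.23 to 0.08.

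Some markers of other cells and of liver maturity were called between the diets in males and stand beside these changes. As each array number lay under 1 diet, diet and number cannot be told apart here either. Foetal hepatocyte markers (3 of 4 measured) ranged from 7.89 to 8.37 in m-WS pups, against 8.26 to 9.90 in m-LF pups, and Afp, the alpha-fetoprotein of foetal liver, and Gpc3 were called lower (changes -1.48 and -0.54). Markers of B cell precursors (6 of 8 measured) ranged from 6.15 to 6.79 in m-WS and from 5.24 to 6.58 in m-LF pups, with Igll1, Ebf1 and Cd79a called higher. Markers of neutrophils and their precursors (9 of 9 measured) ranged from 6.25 to 6.93 in m-WS and from 5.62 to 7.05 in m-LF pups, with 3 called higher. The m-LF pups of number 50 read 7.05 and 6.62 for this list, the other m-LF pups 5.62 to 5.93. All 3 lists overlapped between the diets. In the first 2 the overlap came from m-LF6, at 8.26 for foetal hepatocytes and 6.58 for B cell precursors. The other m-LF pups read 8.80 to 9.90 and 5.24 to 5.77. Of the other lists, 2 of 4 tested genes of stellate cells (Lrat and Reln, changes -0.24 and -0.22) and 1 of 5 of endothelium (Clec4g, -0.38) were called lower. Of cholangiocytes 1 of 4 (Sox9, 0.43) was called higher. None was called of the 6 tested genes of Kupffer cells, 4 of erythroid cells, 3 of hepatocytes and 1 of kidney. Over all genes tested 2.6% were called lower and 3.02% higher. The uncalled tested genes of 2 lists went the other way, and those of endothelium were divided. Pdgfrb (8.56 in m-WS, 8.34 in m-LF pups) and Col1a1 (8.55, 8.34) of stellate cells had higher means under WSD. Krt19 (5.26, 5.97), Krt7 (5.42, 5.69) and Epcam (5.42, 5.60) of cholangiocytes had lower ones. In endothelium Lyve1 (9.29, 9.11) and Pecam1 (8.512, 8.505) were higher under WSD, and Stab2 (10.15, 10.22) and Kdr (8.85, 8.88) were lower. The mean levels of these 3 lists overlapped between the diets, at 9.54 to 9.73 in m-WS and 9.63 to 9.77 in m-LF pups for stellate cells, 9.25 to 9.65 in m-WS and 9.31 to 9.67 in m-LF pups for endothelium, and 5.72 to 5.96 in m-WS and 5.43 to 6.70 in m-LF pups for cholangiocytes. The part of these lists in the changes of Cyp2d9 and Cyp2b13 was not tested.

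In females, 0 of the 6 testable genes was called by limma upon maternal WSD, where 5.19% of all genes tested were, and 1 of the 6, Cyp2b13, had an unadjusted p under 0.05. The median change of the 6 genes was -0.03, against 0.01 for all genes tested. Cyp2b13 lay at 7.42, 7.96 and 8.37 in f-WS pups, against 7.71, 8.37 and 8.88 in f-LF pups. The groups overlapped, with 5 of 6 f-WS pups below the f-LF mean. The change was -0.37 ± 0.16 (SE; limma, adjusted p = 0.279). It was called without number 39, without number 49, and without f-LF4, f-LF5 or f-WS2. The lowest adjusted p of Cyp2b13 in females under any setting was 0.138 (limma). Cyp2d9 averaged 8.66 ± 0.26 in f-WS (n = 6) and 8.84 ± 0.23 in f-LF pups (n = 9), a change of -0.18 with a 95% interval from -0.39 to 0.03.

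Mup3 in females averaged 5.70 ± 1.04 in f-WS and 5.40 ± 0.65 in f-LF pups, with a change of 0.30 ± 0.34 (SE). The 6 f-WS values, 4.85, 4.24, 5.70, 5.87, 7.09 and 6.46, covered nearly the whole range of the gene. Hsd3b5 averaged 4.41 ± 0.51 in f-WS and 4.11 ± 0.29 in f-LF pups (change 0.30; limma, adjusted p = 0.405). Cux2 changed by 0.12 and Bcl6 by -0.26, with 95% intervals from -0.20 to 0.44 and from -0.83 to 0.31. In the fit without filters Elovl3, Cyp4a12a, Slco1a1 and Cyp2b9 changed by -0.14, -0.12, 0.04 and 0.03.

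**Figure D2:**
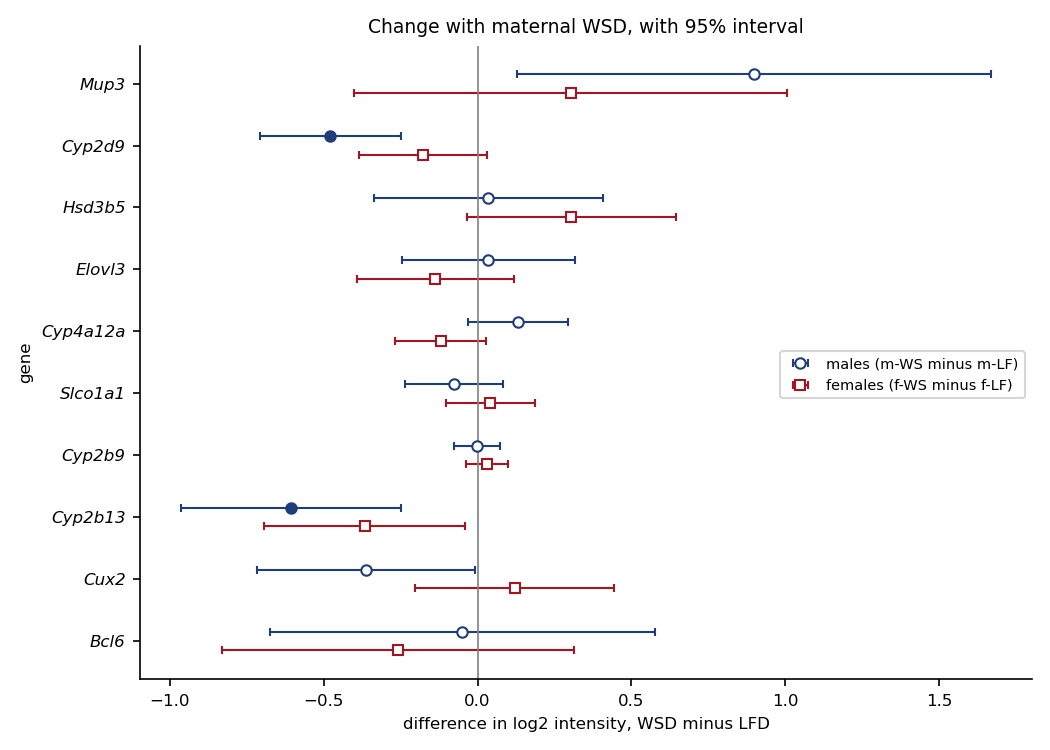
Change in log2 intensity with maternal WSD (horizontal axis, WSD minus LFD) with its 95% interval for each of the 10 genes, as circles for males and squares for females. Elovl3, Cyp4a12a, Slco1a1 and Cyp2b9 come from the fit without filters. Filled marks are calls at a limma p of at most 0.01, and only Cyp2d9 (-0.48) and Cyp2b13 (-0.61) in males are filled.

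The response to maternal diet was then compared between the sexes in the same model. None of the 6 testable genes was called by limma, where 2.5% of all genes tested were, and Cux2 alone of the 6 had an unadjusted p under 0.05. The difference (change in males minus change in females) was -0.48 ± 0.23 (SE) for Cux2 (limma, adjusted p = 0.505) and -0.30 ± 0.15 for Cyp2d9 (adjusted p = 0.525). For Cyp2b13 it was -0.24 with a 95% interval from -0.72 to 0.24, so the call in males does not set the sexes apart. Cyp4a12a, under the intensity limit on all arrays, had a difference of 0.25 in the fit without filters (limma, adjusted p = 0.529).

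Whether the adult sex difference was present at 2 weeks was read from males against females on each diet. On LFD, 0 of the 6 genes was called by limma, where 1.37% of all genes tested were. Cyp2d9 had the only unadjusted p under 0.05, at 9.06 ± 0.22 in m-LF and 8.84 ± 0.23 in f-LF pups (difference 0.22 ± 0.10 SE; limma, adjusted p = 0.74). The male-biased Mup3 differed by 0.15 with a 95% interval from -0.55 to 0.85, and the female-biased Cyp2b13 by -0.02 with an interval from -0.34 to 0.31. Cyp2b9 averaged 12.36 ± 0.09 in m-LF and 12.37 ± 0.04 in f-LF pups, a difference of -0.01 with an interval from -0.08 to 0.06.

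On WSD, 1 of the 6 genes was called, Cux2, as lower in males, where 3.35% of all genes tested were called and 2.29% called as lower. Cux2 lay at 6.59, 7.10 and 7.32 in m-WS pups, against 7.45, 7.78 and 8.09 in f-WS pups. The groups did not overlap, which held for 0.962% of all genes tested. The difference was -0.71 ± 0.17 (SE), or 1.64-fold lower in males (limma, adjusted p = 0.0916). Without m-WS1 and m-LF6 it was -0.73 and called. Without number 48 the difference was -0.73, and on the arrays of prefix G073 alone -0.54, neither of which was called (limma, adjusted p of 0.292 and 0.998). Mup3 averaged 6.45 ± 0.64 in m-WS and 5.70 ± 1.04 in f-WS pups (difference 0.75; limma, adjusted p = 0.478). Slco1a1, under the intensity limit, differed by -0.20 in the fit without filters (limma, adjusted p = 0.393).

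**Figure D3:**
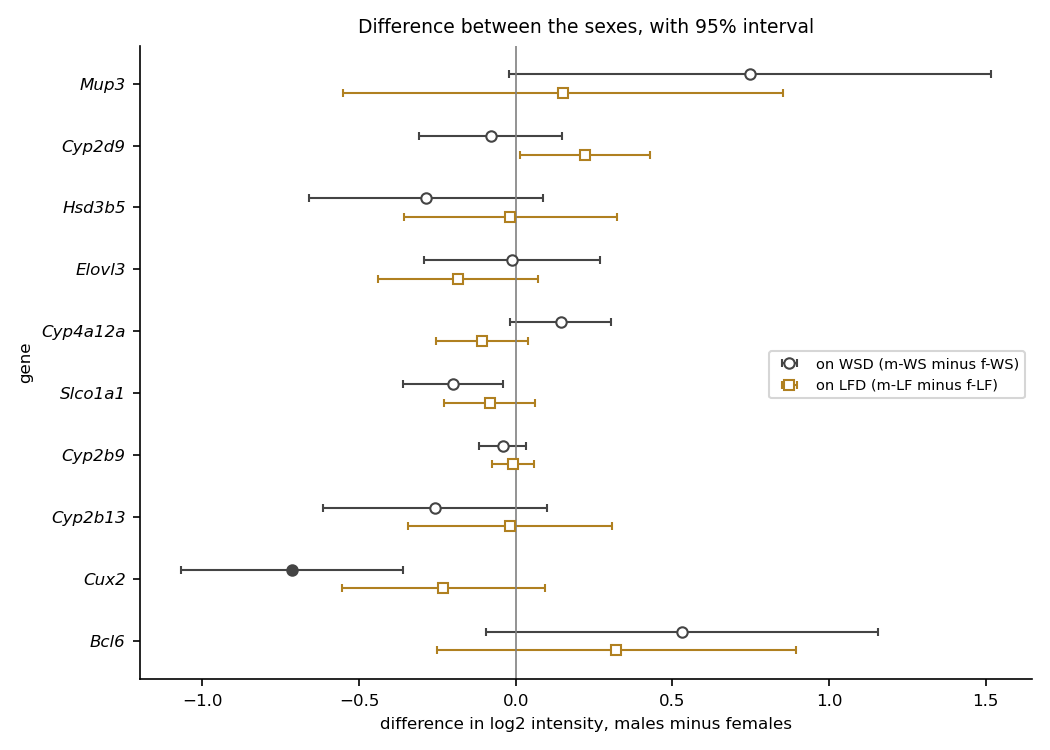
Difference in log2 intensity between the sexes (horizontal axis, males minus females) with its 95% interval for each of the 10 genes, as circles on WSD and squares on LFD. Elovl3, Cyp4a12a, Slco1a1 and Cyp2b9 come from the fit without filters. Filled marks are calls at a limma p of at most 0.01, and only Cux2 on WSD (-0.71) is filled.

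Mup3 and Cux2 varied with the number in the array name more than most genes did. Of the squared deviation of Mup3 from its group means, 80.6% lay between numbers, a share that 0.231% of all genes tested reached, and for Cux2 it was 73.3%, which 1.28% reached. The median over all genes tested was 37.4%. Hsd3b5 had 55.7%, Bcl6 43.7% and Cyp2b13 42.8%, and Cyp2d9 lay just under the median.

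Among pups of the WSD, Mup3 ran from 4.24 to 4.85 in the 2 pups of number 39, both females, from 5.60 to 5.87 in the 4 pups of number 40 and from 6.46 to 7.13 in the 6 pups of number 48. These ranges did not overlap, and within numbers 40 and 48 males and females lay side by side. Under LFD the ranges were 4.84 to 6.02 for number 37, 4.66 to 5.68 for number 49 and 5.43 to 6.73 for number 50. With the number as a fixed block, added after the data were seen, the difference between the sexes on WSD was -0.02 for Mup3, against 0.75 without the block.

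For Cux2 the difference between the sexes was also read within the numbers. In 4 of the 5 numbers that held both sexes every female lay above every male, and in number 50 the mean of both sexes was 7.67. Each sex had only 2 to 4 pups in a number, and the share of all genes that separate this often was not counted. The same pups had given the call of Cux2 on WSD, so this is a description and no independent support. With the number as a fixed block the difference between the sexes was -0.59 on WSD (limma, adjusted p = 0.0656) and -0.29 on LFD (adjusted p = 0.429). Both were called, and that on LFD was called in this fit alone among those run. On LFD this fit called 247 of all 10810 genes tested between the sexes, against 148 without the block. On WSD it called 270, against 362 without the block.

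**Figure D4:**
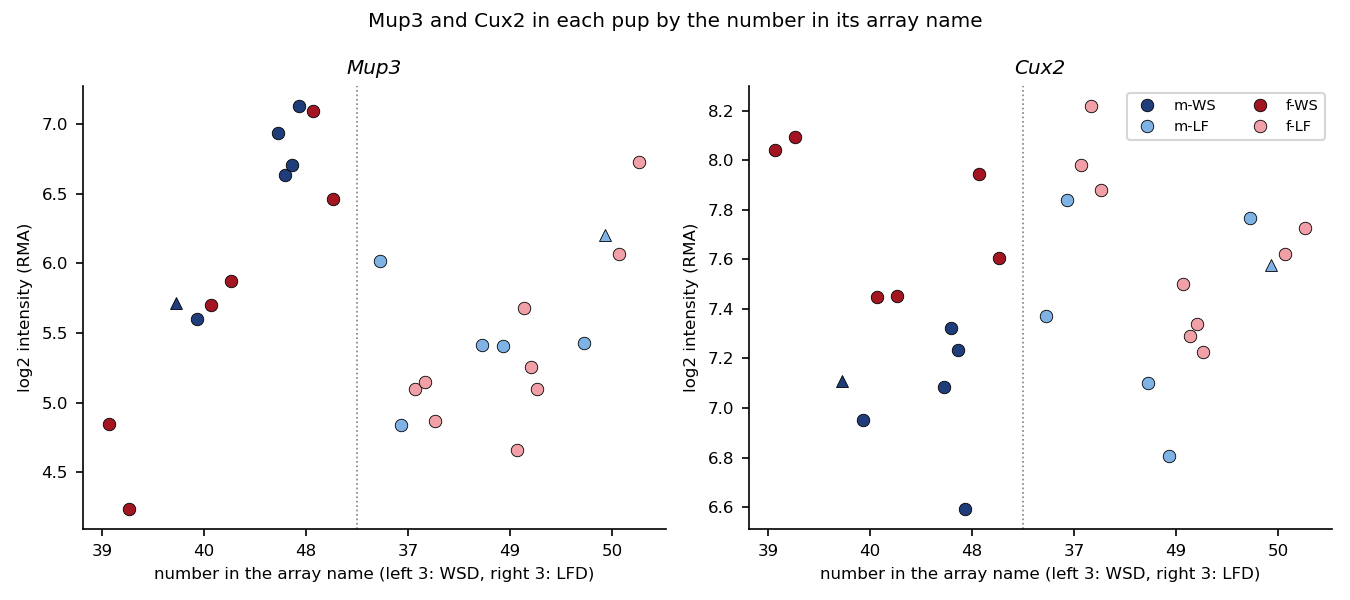
Log2 intensity of Mup3 and Cux2 (vertical axes) in each pup by the number in its array name (horizontal axes), coloured by group, with WSD numbers left and LFD numbers right of the dotted line and triangles for m-LF6 and m-WS1. The ranges of Mup3 in numbers 39 (females only), 40 and 48 do not overlap, and in numbers 37, 40, 48 and 49 Cux2 is higher in every female than in every male.

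The genes most like each of the 6 testable genes were found by Pearson's r over the 27 arrays after the group means were removed. All points share the same arrays, and the number in the array name is one thing they share. Closest to Mup3 were Gstk1 (r = 0.875), Dpyd (0.873) and another urinary protein gene, Mup20 (0.861). Closest to Cux2 were C030016D13Rik (0.827), Fut8 (0.805) and Dcaf6 (0.801). Cyp2d9 was closest to Tnfaip8l1 (0.838), with Tnfrsf19 (0.679) and Grb10 (0.67) further off, and Cyp2b13 to Zfp740 (0.77), Rab30 (0.766) and Fas (0.706). For Bcl6 the values were 0.782 with Jmjd6 and 0.71 with Gapdhs and Ppp4r4, and for Hsd3b5 0.715 with Lig3 and Neto1 and 0.705 with Slc13a4. Among the 10 genes themselves the highest r was 0.51, between Cyp2b13 and Cux2, and that of Cyp2d9 and Cyp2b13 was 0.24.

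Other genes with a male bias in adult liver were counted in the same way. Of 19 listed, 15 had a probe set and 11 were tested. In males 1 was higher upon WSD, Selenbp2 (change 0.44, limma adjusted p = 0.106), where 3.02% of all genes tested were called higher and 2.6% lower. The median change was 0.05, against 0.01 for all genes. In females Ugt2b38, a glucuronosyltransferase, was higher (0.31, limma adjusted p = 0.0294) and Susd4 lower (-0.45, limma adjusted p = 0.162), where 3.6% of all genes tested were called higher and 1.59% lower. The median change in females was -0.02. Between the sexes 0 of the 11 were called on LFD, and on WSD 2 were higher and 2 lower in males. Over all genes tested 1.37% were called on LFD and 3.35% on WSD.

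Of 30 other genes with a female bias in adults, 21 had a probe set and 20 were tested. In males 2 were higher, Cyp2b10 and the neurotrophin receptor gene Ntrk2 (0.77, limma adjusted p = 0.0684), and 6 were lower, among them Prom1 (-0.31, limma adjusted p = 0.0387) and Cyp39a1, an oxysterol hydroxylase (-0.58, limma adjusted p = 0.0631), beside 3.02% of all genes called higher and 2.6% called lower. The median change was 0.04, against 0.01 for all genes. In females 3 were higher, Hao2 (0.20), Cyp3a44 (0.32) and Ntrk2 (0.54), and 1 was lower, Tox (-0.18), with limma adjusted p between 0.0852 and 0.173, beside 3.6% of all genes called higher and 1.59% called lower. The median was 0.05, against 0.01 for all genes. Between the sexes 1 of the 20 was called on LFD and 3 on WSD, all lower in males. Over all genes tested 1.37% were called on LFD and 3.35% on WSD, 2.29% as lower in males on WSD.

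The genes of the growth hormone pathway itself were also counted. Of 19 listed genes, 17 had a probe set and 16 were tested. In males 1 was higher, Igfbp3, a carrier of insulin-like growth factors (0.35, limma adjusted p = 0.0947), where 3.02% of all genes were, with a median change of 0.03. In females 2 were higher, Ptpn1, a phosphatase that acts on JAK kinases (0.26, limma adjusted p = 0.0463), and Igfals, a further carrier subunit (0.31, limma adjusted p = 0.107), where 3.6% of all genes were, with a median of 0.10. The receptor gene Ghr changed by 0.05 in males and 0.10 in females, Stat5b by -0.00 and 0.02, Igf1 by 0.03 and 0.12, the feedback inhibitor gene Socs2 by -0.28 and 0.17, and Hnf4a, a hepatocyte factor that works beside STAT5b, by -0.02 and 0.00, none of them called.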

How the data were processed

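The authors hybridised RNA to Affymetrix Mouse Gene ST arrays and deposited RMA log2 intensities of 35556 probe sets as the manufacturer defined them; the redefined probe sets of the methods were not used here. Of these, 21218 were annotated to a single gene, 1881 to several and 12457 to none, and symbols of 21185 were updated by Entrez identifier. The probe set of highest mean was kept for each of 18820 genes. No 2 arrays were identical.

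A limma model (3.58.1, R 4.3.3) with 4 group means and an intensity trend in the prior variance was fitted to the 10810 genes that passed the filters, with Benjamini-Hochberg adjustment over all of them, and to all 18820 genes for those that failed. It was tested on simulated data. Summaries and figures used Python 3.11.15, pandas 2.3.3 and matplotlib 3.10.9. A call is a two-sided p of at most 0.01. The 5 comparisons were WSD against LFD in each sex, the difference of these, and the sexes on each diet.

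All 10 genes were named. From each further list up to 4 called genes of smallest p per sex were named, with Cyp2b10, Ghr, Stat5b, Igf1, Socs2 and Hnf4a whatever their p, and the 3 most correlated genes for each gene that passed. Genes and lists were chosen with earlier results of these data known. The alternatives were other normalizations, filters and prior variances, blocks for prefix, number and replicate, subsets of arrays, and leaving out each number and each pup. Replicate numbers did not pair the pups.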

Additional observations from a re-analysis of the deposited data

Results flagged for a closer look

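The groups of 6 and 9 pups were examined for single pups far from the rest in each of the 40 pairs of a gene and a group, and 5 values stood apart by the ratio of their gap to the range of their group. Chance alone sets apart about 1 group in 20. Cyp2d9 was 9.476 in m-LF5, the highest of the m-LF pups, and 8.343 in f-LF8, the lowest of the f-LF pups. Cyp2b13 was 7.107 in m-WS6, the lowest of the m-WS pups, and 8.774 in m-LF5, the highest of the m-LF pups. Slco1a1 was 4.309 in f-LF7, the highest of the f-LF pups and still under the intensity limit. The pup m-LF5 thus stood apart for both genes that were called in males. Without any 1 pup in turn, the change in males lay between -0.52 and -0.40 for Cyp2d9 and between -0.66 and -0.49 for Cyp2b13, and both were called each time.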

How the results depend on the processing

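Under 47 other settings, 34 of the 50 changes of the 10 genes kept their side of the threshold throughout, 13 were called in some settings only, and 87 of 2230 values changed sign, none of them called. For WSD against LFD in males, 2 genes were called, against 1 (Cyp2d9) on the arrays of prefix G073 alone and 1 on those of G074 alone. The call on G074 was Cux2, and those of Cyp2d9 and Cyp2b13 were both lost there. The count was 0 without number 48, 1 (Cyp2d9) without number 50, and 2 to 3 when 1 pup was left out. There were 3, with Mup3 in addition, with males fitted alone, without m-LF6 and m-WS1, without number 39 and without number 40, and 3, with Cux2 in addition, without number 49 and without m-LF4. In females, 0 were called, against 1 (Hsd3b5) on the arrays of G074 alone and 1 each without number 39, 48, 49 or 50. That gene was Cyp2b13 without number 39 or 49, Hsd3b5 without number 48 and Cyp2d9 without number 50. When 1 pup was left out 0 to 1 were called, Cyp2b13 without f-LF4, f-LF5 or f-WS2 and Hsd3b5 without f-WS5. For the difference between the sexes in the change, 0 were called, against 2 on the arrays of G074 alone and 0 to 1 when 1 pup was left out. For males against females on LFD, 0 were called, against 1 with the array number as a fixed block, a setting chosen after seeing the data, and 0 to 0 when 1 pup was left out. For males against females on WSD, 1 was called, against 0 on the arrays of G073 alone, 2 on those of G074 alone, 0 without number 48, and 1 to 3 when 1 pup was left out (3 without f-WS5). Fewer arrays enter the settings that leave out arrays; otherwise the cause was not tested.

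The replicate numbers of the labels do not pair the pups. The correlation of deviations between same-numbered pups had a median between -0.01 and 0.08 over the pairs of groups, and 1 or 2 of 6 pairs were over 0.1. With a replicate block, 3 genes were called in males (Mup3 in addition; limma, adjusted p = 0.099), 0 in females, 0 for the difference, and 0 on LFD and 1 on WSD between the sexes.

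Centring each array on its median moved the split of all called genes to 226 higher and 401 lower in males, against 327 and 281 as deposited, to 190 and 314 in females, against 389 and 172, and to 205 and 158 for males against females on WSD, against 114 and 248. The calls of Cyp2d9, Cyp2b13 and Cux2 kept their direction. Signal over background limits Elovl3, Cyp4a12a, Slco1a1 and most arrays of Hsd3b5, for which a change at low level could not have been seen.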
